A study of Mus musculus with 6 samples.

Results

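Chemokines and chemokine receptors other than Cxcl12, Cxcr4 and Cxcr7 were examined in control and AMD3100-treated embryonic submandibular glands (eSMGs) of ICR mice. Members were taken by gene symbol (Ccl, Cxcl, Cx3cl1 and Xcl1 for ligands, and Ccr, Cxcr, Cx3cr1 and Xcr1 for receptors), which gave 55 of the 23238 symbols in the count files, 38 ligands and 17 receptors. All glands were taken at embryonic day 14 and cultured ex vivo, and the groups differed in the addition of 50 µM AMD3100, an antagonist of CXCR4, for 6 h. Each group had 3 libraries (replicates 1 to 3), each from a tube of up to 10 pooled eSMGs, and the labels do not say whether tubes came from separate litters, so that p-values measure the spread between these tubes. The libraries were 3′ mRNA libraries, in which the reads of a transcript come from its 3′ end, and the deposited value is a read count per gene. Between 9051595 and 14393031 counts were obtained per library, at which 3 counts, the floor used here, correspond to 0.208 to 0.331 CPM (counts scaled to a common library total). Intervals and floors cover the error of counting reads alone. PCR copies of a molecule are counted as separate reads, so that the error of counting molecules can be larger.

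Chemokines are small secreted proteins, or in the case of Cx3cl1 and Cxcl16 also membrane-anchored ones, that bind seven-transmembrane receptors and direct the movement of cells along a gradient. CC and CXC ligands are named for the spacing of their first cysteines, and the receptors are named for the class of ligand they bind. Members are known mainly from leukocytes, endothelium and connective tissue, with some made by epithelia, such as CCL27 in skin and CCL28 in mucosal glands. The label of the tissue was checked against marker genes. The 7 markers of gland epithelium and the 7 markers of gland mesenchyme were all above the filter on low counts, with Krt15, a keratin of basal epithelial cells, at 1299 CPM and Col3a1, a fibrillar collagen, at 1075 CPM as the most abundant of each (means of 6 libraries).

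Of the 55 members, 47 had at least 1 count in some library, that is 32 of 38 ligands and 15 of 17 receptors. Ccl7, Ccl17, Ccl22, Ccl26, Cxcl3, Xcl1, Ccr8 and Cxcr1 had 0 counts in all 6 libraries, which at this depth allows a level up to the floor in each library. Ccl1, Ccl12, Ccl24, Ccr10 and Cxcr3 never exceeded 3 counts in any library. The remaining 42 members were above the floor in at least 1 library, but only 14 of the 55 had a count in all 6 libraries, 11 of them ligands and 3 of them receptors. By class, counts were found for 20 of 24 CC ligands, 11 of 12 CXC ligands, 9 of 10 CC receptors, 4 of 5 CXC receptors and 3 of the 4 CX3C and XC members. edgeR's filter on low counts kept 21 members (38.2%) for the comparison between groups, against 58.5% of all lines in the files. These were 18 ligands and the 3 receptors Ccr2, Cx3cr1 and Cxcr5. Together the members received 217, 218 and 514 CPM (here of the library total, without normalization) in control replicates 1, 2 and 3, and 234, 200 and 616 in AMD3100-treated replicates 1, 2 and 3. Both replicate 3 libraries stood above the other 4, and the groups overlapped. Without Ccl27a and Ccl27b the sums were 114, 111 and 139 in control and 111, 94.6 and 126 in AMD3100-treated eSMGs, so that most of the excess in replicate 3 lay in these copies.

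**Figure D1:**
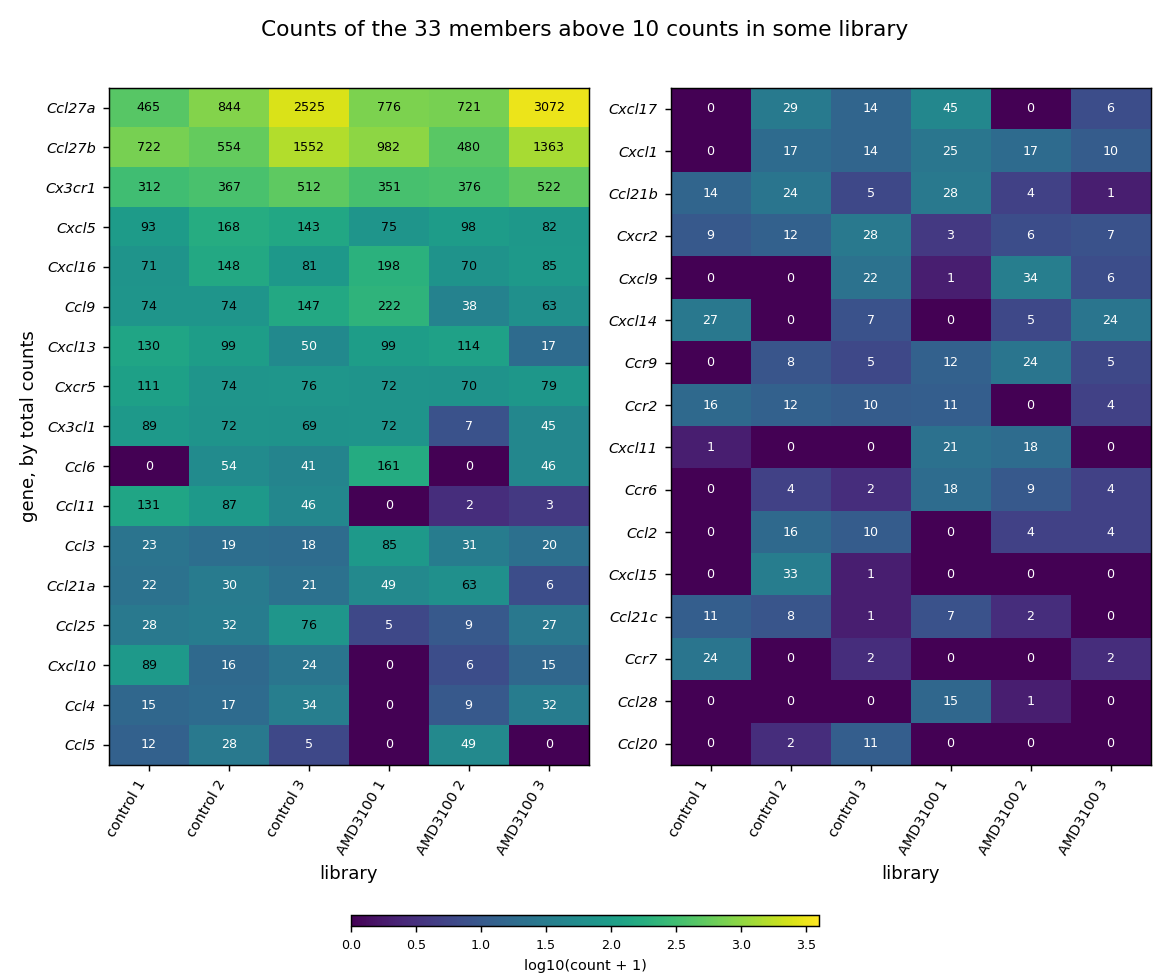
Deposited counts of the 33 members above 10 counts in at least 1 library, as a heat map with 1 row per gene (ordered by total counts) and 1 column per library; the number in each cell is the count and the colour is log10(count + 1). Ccl27a, Ccl27b and Cx3cr1 lead in every library, and Ccl11 goes from 131, 87 and 46 counts in control to 0, 2 and 3 in AMD3100-treated eSMGs.

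Ccl11 (eotaxin-1), a CC ligand that attracts eosinophils through Ccr3, stood furthest apart between the groups of all members tested. Its counts were 131, 87 and 46 in control replicates 1, 2 and 3 and 0, 2 and 3 in AMD3100-treated replicates 1, 2 and 3. No AMD3100-treated library exceeded the floor of 3 counts, and the groups did not overlap. On the scale of TMM-normalized CPM, the level was 7.46 ± 3.58 in control and 0.184 ± 0.184 in AMD3100-treated eSMGs (SD, n = 3). Pooled over libraries, 264 counts stood against 5, a level 54.6-fold lower with AMD3100 (95% exact interval 23.1 to 169, counting error only). In edgeR's quasi-likelihood test the log2 fold change was -5.42 (SE 1.21), with an unadjusted p of 0.00162 and a Benjamini-Hochberg adjusted p of 1.0 over 13610 genes. It was the most negative log2 fold change among the 13610 genes and the sixth lowest p. Ccl11 passed the filter on low counts through its control libraries alone, so that these ranks are a description. An exact two-sided permutation test of the 6 CPM values gave p = 0.1, the smallest that 3 against 3 libraries allow.

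Whether Ccl11 passed a threshold depended on the test and on the adjustment. By the thresholds of the study, a fold change over 1.5 and an unadjusted p under 0.05, Ccl11 was down-regulated, the only call among the 21 members tested, where 1.68% of all genes tested were called, 1.28% lower and 0.397% higher. At an adjusted p under 0.05, edgeR called 0% of the genes and no member, although 228 genes had an unadjusted p under 0.05. DESeq2 called 5 genes (0.0274%) at that level, among them Ccl11 with a log2 fold change of -5.52 and an adjusted p of 0.00342. With replicate number as a block, edgeR called 0.022% of the genes at that level and no member, and DESeq2 with the block called 0.583% of the genes, Ccl11 among them. Without adjustment, DESeq2 passed 2.62% of the genes on both thresholds and DESeq2 with the block 4.62%, in either case with Ccl11 among the members. A version of the procedure of the study passed 2.34% of the genes and 3 members, Ccl11, Ccr2 and Ccl3. Without AMD3100-treated replicate 2, edgeR passed 1.36% of the genes and 2 members, Ccl11 and Ccl5. Over all alternatives fitted, the adjusted p of Ccl11 ranged from 0.00112 to 1.0 and its log2 fold change from -6.66 to -4.42. With 1 library left out at a time, the log2 fold change ranged from -6.40 to -4.72. In tissue of mixed cells, fewer cells that express Ccl11 and less Ccl11 RNA per cell cannot be told apart.

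Ccl11 lies on chromosome 11 (GRCm38.p6, chr11:82057832-82062955), within a run of 6 CC ligand genes over 144 kb in the order Ccl2, Ccl7, Ccl11, Ccl12, Ccl8 and Ccl1. A simulated read was counted as shared when another place in the genome scored within 1 mismatch of the best. Of reads simulated from the 3′ end of Ccl11, 0 of 11 were shared, and no annotated gene overlapped that end. Its neighbours were at or near 0. Ccl2, a ligand that recruits monocytes, had 0, 16 and 10 counts in control replicates 1, 2 and 3 and 0, 4 and 4 in AMD3100-treated replicates 1, 2 and 3. Ccl8, another monocyte attractant, was counted in the replicate 3 libraries alone, with 9 counts in control eSMGs and 7 in AMD3100-treated eSMGs. Ccl12 had 3 counts and Ccl1 had 2 counts, all in control replicate 3, and Ccl7 had none. In the 4 neighbours with a count, no library reached the lowest control value of Ccl11 (46 counts), and Ccl11 was the only gene of the run that passed the filter.

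**Figure D2:**
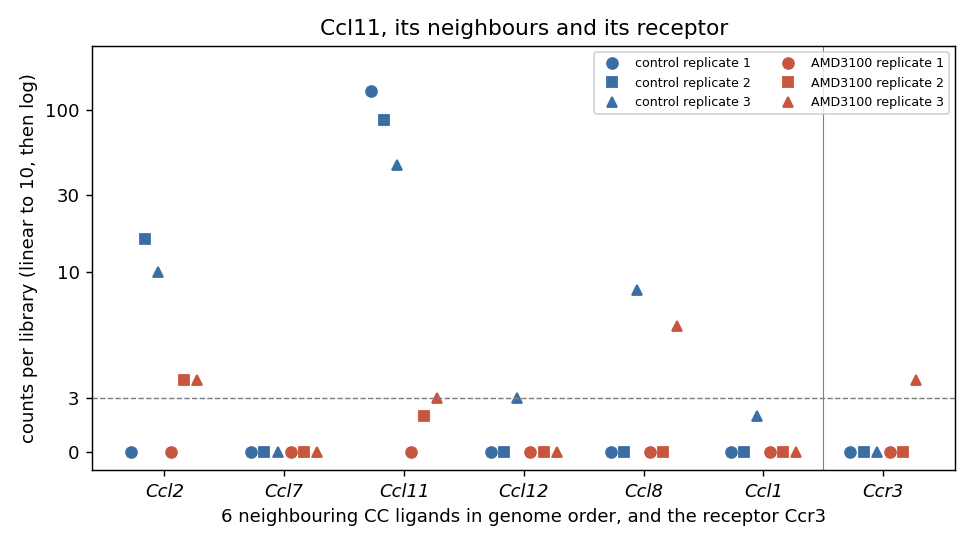
Counts per library of Ccl11, the 5 CC ligand genes next to it and the receptor Ccr3; the vertical axis is linear up to 10 and logarithmic above, the dashed line is the floor of 3 counts, and symbols mark replicates of control (blue) and AMD3100-treated (red) eSMGs. Ccl11 stands at 46 to 131 counts in control and at 0 to 3 in AMD3100-treated libraries, while no neighbour exceeds 16 counts.

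The receptor and the target cells of Ccl11 were scarcely detected. Ccr3, the eotaxin receptor, had 4 counts in AMD3100-treated replicate 3 and 0 in the other 5 libraries. The other eotaxins, Ccl24 and Ccl26, had 2 counts in AMD3100-treated replicate 3 and 0 counts in all libraries, respectively. Of 7 eosinophil markers, none passed the filter, their sum did not exceed 0.576 CPM in any library, and Siglecf and Ear1 were at 0 in all libraries, with Prg2, a granule protein, the most abundant at a mean of 0.0838 CPM. Fibroblasts are a known source of CCL11, and the 7 mesenchymal markers, of which none was called, summed to 4090, 4019 and 1769 CPM in control replicates 1, 2 and 3 and to 4102, 4076 and 1615 CPM in AMD3100-treated replicates 1, 2 and 3. The sums, carried by the collagens, thus differed more between replicate 3 and the others than between the groups. Osr1, a mesenchymal transcription factor, was the marker whose AMD3100-treated libraries all lay below control, as did those of 4.17% of all genes tested. It was at 184, 172 and 170 CPM in control against 148, 140 and 161 CPM with AMD3100 (log2 fold change -0.23, SE 0.26). IL-4 and IL-13, acting through STAT6, are known inducers of Ccl11, and Il4, Il13 and Il5 had 0 counts in all 6 libraries.

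The genes whose log2 CPM followed Ccl11 most closely over the 6 libraries were Psmg1 (Pearson r = 0.992), Slc25a22 (0.984), Pan2 (0.975), Ppm1j (0.972) and Phc2 (0.972). These values describe 6 libraries that share the difference between groups. Psmg1 encodes a chaperone of proteasome assembly, Slc25a22 a mitochondrial glutamate carrier, Pan2 a deadenylase, Ppm1j a protein phosphatase and Phc2 a polycomb protein. None is a chemokine, and their log2 fold changes were -1.15, -2.59, -2.02, -4.39 and -0.94, respectively. Ppm1j was the nearest in size to Ccl11, with 45, 21 and 19 counts in control replicates 1, 2 and 3 and 0, 0 and 3 in AMD3100-treated replicates 1, 2 and 3.

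Ccl27a and Ccl27b, near-identical copies of the gene for the CC ligand that draws T cells to skin through Ccr10, were the most abundant members. Their promoters on chromosome 4 are shown because they are the 2 most abundant members and the sequences make plain how alike the copies are. The sequences are windows of 300 bases around a RefSeq start of each gene (GRCm38.p6), 5′ to 3′ on the strand of the gene, at chr4:41774127-41774426 on the minus strand for Ccl27a and chr4:42650354-42650653 on the plus strand for Ccl27b. Capitals mark the bases that differ between the copies.
Ccl27a: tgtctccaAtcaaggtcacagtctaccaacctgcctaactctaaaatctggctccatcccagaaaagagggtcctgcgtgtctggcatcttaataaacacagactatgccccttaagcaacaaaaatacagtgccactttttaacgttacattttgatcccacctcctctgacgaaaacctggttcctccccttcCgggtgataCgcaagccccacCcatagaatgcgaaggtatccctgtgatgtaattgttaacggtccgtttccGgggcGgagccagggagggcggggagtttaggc
Ccl27b: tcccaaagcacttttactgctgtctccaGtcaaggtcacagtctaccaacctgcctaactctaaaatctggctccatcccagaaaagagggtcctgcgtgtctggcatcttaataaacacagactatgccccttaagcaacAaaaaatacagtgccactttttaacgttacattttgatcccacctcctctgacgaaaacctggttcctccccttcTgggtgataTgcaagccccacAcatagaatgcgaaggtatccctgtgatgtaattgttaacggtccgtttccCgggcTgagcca
Over the 280 aligned positions, 273 were identical (97.5%), with 6 substitutions and 1 gap.

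Ccl27a had 465, 844 and 2525 counts in control replicates 1, 2 and 3 and 776, 721 and 3072 in AMD3100-treated replicates 1, 2 and 3. Ccl27b had 722, 554 and 1552 counts in control eSMGs and 982, 480 and 1363 in AMD3100-treated eSMGs, in the same order of replicates. Both genes were highest in the replicate 3 libraries of either group. In CPM, Ccl27a was at 252 and 377 in control and AMD3100-treated replicate 3, against 40.7 to 66.5 in the other 4 libraries. Between the groups the log2 fold change was 0.46 (SE 0.89) for Ccl27a and 0.05 (SE 0.62) for Ccl27b, neither of them past the thresholds. The interval of 2 SE on each side of the log2 fold change of Ccl27a ran from -1.31 to 2.24. With replicate number as a block the errors were smaller, with a log2 fold change of 0.28 (SE 0.15, interval -0.02 to 0.59, unadjusted p = 0.0980 by edgeR) for Ccl27a, which was higher with AMD3100 in 3 of 3 pairs, and of 0.03 (SE 0.16) for Ccl27b, neither of them called. Ccr10, the receptor of CCL27, had 3 counts in AMD3100-treated replicate 3 and none elsewhere.

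The counts of the Ccl27 copies cannot be assigned with certainty. Of the reads simulated from the 3′ end of Ccl27a, 81.8% were shared with another place, to within 1 mismatch of the best. The end of Ccl27a overlaps that of Il11ra1, a subunit of the interleukin-11 receptor, in the RefSeq annotation (Ccl27a starts at 41769467 and Il11ra1 ends at 41769473 on chromosome 4 of GRCm38.p6). Il11ra1 had 2209, 2812 and 6434 counts in control replicates 1, 2 and 3 and 3205, 2426 and 6349 in AMD3100-treated replicates 1, 2 and 3. Its highest libraries were thus those of Ccl27a. Gm13306, a gene model, stayed within 10% of the counts of Ccl27b in every library, with 745, 521 and 1557 counts in control eSMGs and 986, 483 and 1335 in AMD3100-treated eSMGs. None of the simulated reads of Ccl27b were shared, but Il11ra2 lies over its end on the opposite strand. Whether the counting used strand is not given in the sources used here. Il11ra2 had 2158, 1725 and 4331 counts in control replicates 1, 2 and 3 and 3170, 1522 and 3404 in AMD3100-treated replicates 1, 2 and 3. Its libraries ranked in the same order as those of Ccl27b, and the part of its reads in the Ccl27b counts was not tested. Myog, Acta1, Myh3 and Tnnt3, skeletal muscle markers, were likewise highest in both replicate 3 libraries, whereas Ckm was not, at 2.33 CPM in control replicate 2 against 1.47 in AMD3100-treated replicate 3. All 5 markers of the list passed the filter, with Myog the most abundant, and they summed to 95.5, 98.1 and 721 CPM in control replicates 1, 2 and 3 and to 58.1, 43.0 and 840 CPM in AMD3100-treated replicates 1, 2 and 3. The part of muscle or of replicate 3 in the level of the Ccl27 copies was not tested.

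**Figure D3:**
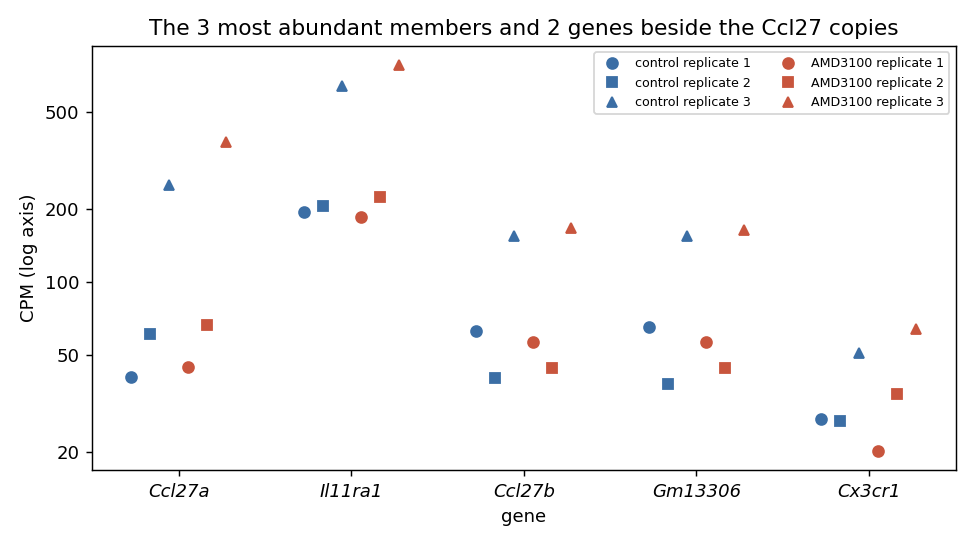
TMM-normalized CPM on a logarithmic axis for the 3 most abundant members (Ccl27a, Ccl27b, Cx3cr1) and for Il11ra1 and Gm13306, with 1 symbol per library (circles, squares and triangles for replicates 1, 2 and 3; blue control, red AMD3100-treated). For each gene the triangles of both groups stand above the other 4 symbols, as for Ccl27a at 252 and 377 CPM against 40.7 to 66.5.

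For 5 of the 21 members tested (Ccl27a, Ccl27b, Cx3cr1, Ccl4 and Ccl25), both replicate 3 libraries stood above the other 4, which held for 23.1% of all genes tested. The reverse, both below the other 4, held for 1 member, Cxcl13, and for 21.1% of all genes.

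Cx3cr1, the fractalkine receptor of macrophages and microglia, was the most abundant receptor. It had 312, 367 and 512 counts in control replicates 1, 2 and 3 and 351, 376 and 522 in AMD3100-treated replicates 1, 2 and 3. In CPM this was 35.0 ± 13.9 against 39.7 ± 22.4 (SD, n = 3), with a log2 fold change of 0.18 (SE 0.47), and the groups overlapped. The 11 macrophage markers, among them Cx3cr1 itself, all passed the filter and none was called. Led by the complement gene C1qa, they summed to 134, 117 and 350 CPM in control replicates 1, 2 and 3 and to 131, 151 and 272 CPM in AMD3100-treated replicates 1, 2 and 3. The sums were highest in both replicate 3 libraries, carried by C1qa, Lyz2, Aif1, Cd68 and Cx3cr1 itself. Csf1r, the receptor of a macrophage growth factor, was instead highest in control replicate 1 (43.2 CPM, and 26.8 in either replicate 3 library). C1qb was at 9.46, 9.91 and 10.3 CPM in control against 7.83, 9.03 and 8.60 CPM with AMD3100 (log2 fold change -0.22, SE 0.40). No other marker of the list had AMD3100-treated libraries that all lay below control, as 4.17% of all genes tested did. The part of macrophage number in the level of Cx3cr1 was not tested. Its ligand Cx3cl1 (fractalkine), made by endothelium, epithelium and neurons, had 89, 72 and 69 counts in control eSMGs and 72, 7 and 45 in AMD3100-treated replicates 1, 2 and 3. Each AMD3100-treated library was below the control library of the same number, with 6.64 ± 1.29 against 3.44 ± 2.52 CPM, but the groups overlapped and the log2 fold change of -0.95 (SE 0.80) was not past the thresholds.

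Ccr2, the receptor by which monocytes follow Ccl2, was the other tested member whose AMD3100-treated libraries all lay below the control libraries. Its counts were low, with 16, 12 and 10 in control and 11, 0 and 4 in AMD3100-treated replicates 1, 2 and 3. In counts, AMD3100-treated replicate 1 lay between the control libraries, and the groups separated only after scaling, at 0.874 to 1.40 CPM in control against 0 to 0.634 CPM with AMD3100. With Ccl11, this made 2 of 21 members with AMD3100-treated libraries wholly below control. That pattern was shown by 4.17% of all genes tested (7.44% in either direction). Both members passed the filter through their control libraries alone, which favours this order, so that the count is a description. In edgeR's test the log2 fold change of Ccr2 was -1.50 (SE 1.59, unadjusted p = 0.370).

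Ccl3 (MIP-1α), a ligand of Ccr1 made by activated macrophages, was the only tested member whose AMD3100-treated libraries all lay above the control libraries, as 3.28% of all genes did. It had 23, 19 and 18 counts in control eSMGs and 85, 31 and 20 in AMD3100-treated replicates 1, 2 and 3, or 1.73 ± 0.320 against 3.40 ± 1.31 CPM. In counts, AMD3100-treated replicate 3 lay between the control libraries, and the groups separated only after scaling. The log2 fold change was 0.98 (SE 0.87, unadjusted p = 0.292). Ccl4 (MIP-1β), its neighbour and close relative, did not share the order, with 15, 17 and 34 counts in control eSMGs and 0, 9 and 32 in AMD3100-treated replicates 1, 2 and 3. Ccl5 (RANTES), a T cell and platelet chemokine, had 12, 28 and 5 counts in control eSMGs and 0, 49 and 0 with AMD3100. A single library, AMD3100-treated replicate 2, therefore held all Ccl5 counts of its group, and without it the log2 fold change of 0.32 (SE 1.92) became -6.87.

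Ccl6 and Ccl9, mouse CC ligands of macrophages and myeloid cells, varied more between libraries of a group than between groups. Ccl6 had 0, 54 and 41 counts in control eSMGs and 161, 0 and 46 in AMD3100-treated replicates 1, 2 and 3. Ccl9 had 74, 74 and 147 counts in control eSMGs and 222, 38 and 63 with AMD3100. Their log2 fold changes were 0.90 (SE 1.66) and -0.14 (SE 0.62). Of the simulated 3′ reads of Ccl9, 9.09% were shared with another place. A gene with 161 counts in 1 library and 0 in the next of the same group gives a test little precision.

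Among the CXC ligands that attract neutrophils, Cxcl5 was the most abundant, with 93, 168 and 143 counts in control eSMGs and 75, 98 and 82 in AMD3100-treated replicates 1, 2 and 3. Each AMD3100-treated library stood below the control library of its number in CPM (11.5 ± 3.12 against 7.81 ± 3.06), the groups overlapped, and the log2 fold change was -0.57 (SE 0.49). Cxcl1 had 0, 17 and 14 counts in control eSMGs and 25, 17 and 10 with AMD3100 (log2 fold change 0.68, SE 1.51). Cxcl2 had 10 counts in control replicate 2 and 5 in control replicate 3 only, and Cxcl3 had none. Cxcr2, the neutrophil receptor for these ligands, did not pass the filter, with 9, 12 and 28 counts in control eSMGs and 3, 6 and 7 in AMD3100-treated replicates 1, 2 and 3. In counts, its control libraries were all above the AMD3100-treated libraries, but in CPM control replicate 1 (0.788) was below AMD3100-treated replicate 3 (0.860). Fitted without the filter, its log2 fold change was -1.48 (SE 1.76), not past the thresholds. Of its simulated 3′ reads, 40.0% were shared with another place. Cxcl15 (lungkine), an epithelial ligand of this group, had 33 counts in control replicate 2, 1 in control replicate 3 and 0 elsewhere. The neutrophil markers, 4 of 6 tested, summed to between 9.09 and 42.8 CPM, with S100a9 the most abundant and Elane at 0.

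Cxcl9, Cxcl10 and Cxcl11 are induced by interferons and signal through Cxcr3 on T cells and natural killer cells. Cxcl10 had 89, 16 and 24 counts in control eSMGs and 0, 6 and 15 in AMD3100-treated replicates 1, 2 and 3. In CPM, Cxcl10 was lower with AMD3100 in 3 of 3 pairs of the same number. In counts its AMD3100-treated libraries all lay below control, but in CPM the highest AMD3100-treated library (1.84) lay above the lowest control library (1.17). The log2 fold change of -2.27 (SE 1.53), the most negative of the tested members after Ccl11, was not past the thresholds. Cxcl11 is annotated as a transcribed pseudogene in the RefSeq annotation of GRCm38.p6. The counts of Cxcl9 and Cxcl11, neither of which passed the filter, did not follow it. Cxcl9 had 0, 0 and 22 counts in control eSMGs and 1, 34 and 6 with AMD3100, and Cxcl11 had 1, 0 and 0 in control and 21, 18 and 0 with AMD3100. Art3 lies over the ends of Cxcl10 and Cxcl11 on the opposite strand. Cxcr3 had 1 count in control replicate 3, and no T or NK cell marker passed the filter.

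The remaining CXC ligands include homeostatic chemokines of connective tissue and epithelium. Cxcl16, which is made as a membrane-anchored ligand and binds Cxcr6, had 71, 148 and 81 counts in control eSMGs and 198, 70 and 85 in AMD3100-treated replicates 1, 2 and 3 (log2 fold change 0.17, SE 0.46). Cxcl13, the B cell attractant of lymphoid follicles, had 130, 99 and 50 counts in control eSMGs and 99, 114 and 17 with AMD3100 (log2 fold change -0.36, SE 0.67). Its receptor Cxcr5, known from B cells and follicular T cells, had 111, 74 and 76 counts in control eSMGs and 72, 70 and 79 with AMD3100 (log2 fold change -0.16, SE 0.54). Cxcr5 was thus counted in all 6 libraries, at 4.15 to 9.72 CPM, although the B cell markers Ms4a1 and Pax5 were at 0 in all of them and none of the 5 markers of that list passed the filter. Cxcl17, a mucosal epithelial ligand, had 0, 29 and 14 counts in control eSMGs and 45, 0 and 6 with AMD3100 (log2 fold change -0.06, SE 1.85). Cxcl14, known from epithelium and mesenchyme, did not pass the filter, with 27, 0 and 7 counts in control eSMGs and 0, 5 and 24 with AMD3100.

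The ligands that guide lymphocytes and dendritic cells in lymphoid organs were low. Ccl21a, a ligand of Ccr7 made by lymphatic endothelium, had 22, 30 and 21 counts in control eSMGs and 49, 63 and 6 in AMD3100-treated replicates 1, 2 and 3 (log2 fold change 0.59, SE 0.98). Its copy Ccl21b had 14, 24 and 5 counts in control eSMGs and 28, 4 and 1 with AMD3100 (log2 fold change -0.69, SE 1.43). The copy Ccl21c, which did not pass the filter, had 11, 8 and 1 counts in control eSMGs and 7, 2 and 0 with AMD3100. All simulated 3′ reads of these copies were shared with another place, the gene model Gm1987 had the same counts as Ccl21a in all 6 libraries, and their values are therefore uncertain. Ccl19, the other ligand of Ccr7, with 81.8% of its simulated reads shared, did not exceed 5 counts, and Ccr7 itself had 24, 0 and 2 counts in control eSMGs and 0, 0 and 2 with AMD3100. Of the 5 lymphatic markers, a list that includes Ccl21a, 3 passed the filter and none was called, with Pdpn the most abundant. Prox1, a transcription factor of lymphatic endothelium, was the marker whose AMD3100-treated libraries all lay below control, as did those of 4.17% of all genes tested. It was at 3.06, 2.48 and 1.80 CPM in control against 1.15, 0.0922 and 1.11 CPM with AMD3100 (log2 fold change -1.63, SE 1.24).

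Ccl25, which guides thymocytes and gut lymphocytes through Ccr9, was lower in each AMD3100-treated library than in the control library of the same number. It had 28, 32 and 76 counts in control eSMGs and 5, 9 and 27 in AMD3100-treated replicates 1, 2 and 3, or 4.12 ± 3.0 against 1.48 ± 1.61 CPM. In counts, the AMD3100-treated libraries all lay below control. In CPM, AMD3100-treated replicate 3 (3.32) nevertheless stood above control replicates 1 and 2 (2.45 and 2.33), so that the groups overlapped. The log2 fold change of Ccl25 was -1.49 (SE 1.13, unadjusted p = 0.218). Ccr9 did not pass the filter, with 0, 8 and 5 counts in control eSMGs and 12, 24 and 5 with AMD3100. Among the epithelial attractants, Ccl28, a mucosal ligand of Ccr10 and Ccr3 known from adult salivary glands, had 15 counts in AMD3100-treated replicate 1, 1 in AMD3100-treated replicate 2 and 0 in the other libraries. Ccl20, the mucosal ligand of Ccr6, had 2 counts in control replicate 2 and 11 in control replicate 3 only. Ccr6 had 0, 4 and 2 counts in control eSMGs and 18, 9 and 4 in AMD3100-treated replicates 1, 2 and 3. In CPM the AMD3100-treated libraries of Ccr9 (0.614 to 2.21 against 0 to 0.583) and of Ccr6 (0.491 to 1.04 against 0 to 0.291) all stood above control. Among the genes tested, to which neither belongs, 3.28% stood above control in this way. Fitted without the filter, the log2 fold changes were 1.67 (SE 2.01) for Ccr9 and 2.19 (SE 2.27) for Ccr6, neither of them past the thresholds.

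The other receptors were rare. Xcr1, a receptor of cross-presenting dendritic cells, had at most 7 counts in any library, Ccr1 at most 10, and Ccr4 and Cxcr6 at most 7. None of these receptors passed the filter, and fitted without it none was past the thresholds. Mean CPM over 6 libraries was set side by side in 16 pairs of a ligand and a receptor, and the receptor was the lower partner in 10 of them. CPM of 3′ libraries counts transcript ends and needs no division by length. Ccl27a at 140 CPM and Ccl27b at 87.8 CPM stood against 0.0614 CPM of Ccr10, which enters the pairs of both copies. The counts of these copies and of Ccl21a, also in a pair, cannot be assigned with certainty. Cxcl16 at 8.89 CPM stood against 0.132 CPM of Cxcr6. Cxcl5 at 9.68 CPM stood against 1.01 CPM of Cxcr2, and Ccl11 at 3.82 CPM against 0.0819 CPM of Ccr3. Both partners were above 5 CPM in 2 pairs, Cx3cl1 (5.04 CPM) with Cx3cr1 (37.3 CPM) and Cxcl13 (6.98 CPM) with Cxcr5 (7.16 CPM). In order of mean CPM, the 9 members of at least 5 CPM were Ccl27a, Ccl27b, Cx3cr1, Cxcl5, Cxcl16, Ccl9, Cxcr5, Cxcl13 and Cx3cl1. The libraries of each neighbouring pair in this order overlapped, except for Cx3cr1 (20.2 to 64.1 CPM), whose libraries all lay above those of Cxcl5 (4.32 to 14.3 CPM).

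**Figure D4:**
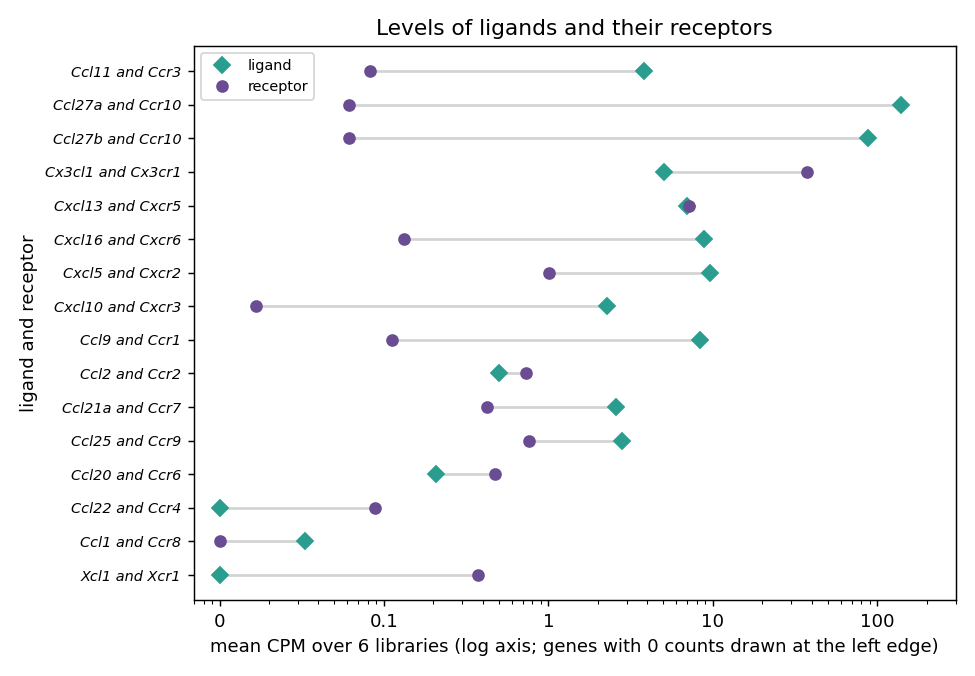
Mean TMM-normalized CPM over 6 libraries of ligands and a receptor of each. The receptor is the lower partner in 10 of 16 pairs, as for Ccl27a (140 CPM) and Ccr10 (0.0614 CPM), and Cx3cl1 with Cx3cr1 and Cxcl13 with Cxcr5 are the pairs with both partners above 5 CPM. The 10 include Ccl1 with Ccr8, both at or under the floor. They also include the pairs of Ccl27a, Ccl27b and Ccl21a, whose counts cannot be assigned with certainty.

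Over the 21 members tested, 12 had negative and 9 had positive log2 fold changes, with a median of -0.14 against 0.02 over all genes tested. Over the alternatives the members' median ranged from -0.56 with the replicate block to 0.08 without control replicate 3, so that its sign was not stable. The precision was lower than for most genes, with a median SE of 0.984 on the log2 scale against 0.503 over all genes. Zeros were more frequent as well, since 8 of the 21 members (38.1%) had 0 counts in at least 1 library, against 11.6% of all genes tested. Among lines with 50 to 500 counts in total, 11 of 18 members (61.1%) had a 0 in some library against 42.9% of 4874 lines. At the biological coefficient of variation of these libraries (0.579), changes in members such as Ccl4, Ccl5, Ccl6 and Cxcl17 could not be told from the spread between tubes.

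**Figure D5:**
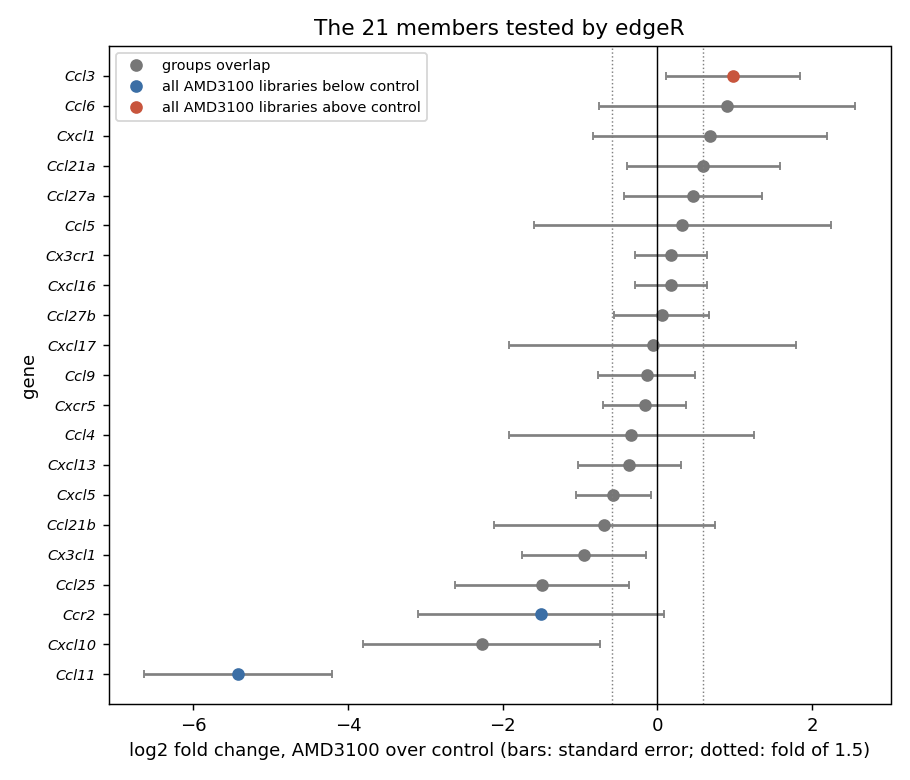
Log2 fold change of AMD3100-treated over control eSMGs for the 21 members tested, with bars of 1 SE from edgeR's quasi-likelihood fit. Ccl11 lies at -5.42 (SE 1.21), and of the others Cxcl10 is the most negative at -2.27 (SE 1.53) and Ccl3 the most positive at 0.98 (SE 0.87).

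Genes of the wider pathway were read from 6 lists, 49 of whose 73 genes in the files passed the filter, and 1 of them was called by the thresholds of the study, as 1.68% of all genes tested were. In the CXCL12 axis, Cxcl12 (log2 fold change -0.39, SE 0.32), Cxcr4 (-0.50, SE 0.44) and Ackr3, the current symbol of Cxcr7 (1.28, SE 0.82), were tested and 0 of 3 called. Ackr3, which binds CXCL12 and removes it, had 66, 10 and 17 counts in control eSMGs and 108, 73 and 57 in AMD3100-treated replicates 1, 2 and 3. Its AMD3100-treated libraries all stood above control after scaling, at 6.22 to 7.0 against 0.728 to 5.78 CPM, as 3.28% of all genes tested did. Of 4 atypical receptors and scavengers that bind chemokines without G protein signaling, Ccrl2 alone was tested (1.15, SE 1.69), and Ackr2 had 0 counts. Of 16 chemokine genes and chemokine-like genes with other symbols, 10 were tested with a median of 0.06 and 1 was called. This was Cmtm3, a MARVEL-domain protein of the chemokine-like factor family, with 336, 496 and 743 counts in control eSMGs and 394, 242 and 196 in AMD3100-treated replicates 1, 2 and 3 (log2 fold change -1.01, SE 0.39, unadjusted p = 0.0293, adjusted p = 1.0 by edgeR). The call was lost with limma-voom, in the version of the procedure of the study, with replicates 1 and 2 only, and without control replicate 3, AMD3100-treated replicate 1 or AMD3100-treated replicate 2. In CPM, the AMD3100-treated libraries of 2 genes of that list, Cmtm3 and Cmtm6, all lay below control, as did those of 4.17% of all genes tested. Pf4, the platelet chemokine, had the largest change of that list at -1.73 (SE 1.44) and was not called.

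In the lists of pathways that induce chemokines, no gene was called by edgeR with condition as the only term and all 6 libraries. The type 2 cytokine and STAT6 list had 6 of 13 genes tested, with a median of 0.11 and the largest change in Tslp, an epithelial cytokine (-0.85, SE 2.21). The NF-kB and inflammatory cytokine list had 15 of 22 tested, with a median of 0.03 and the largest change in Nfkbiz, an NF-kB cofactor (-0.78, SE 0.57). The interferon list had 14 of 15 tested, with a median of 0.05 and the largest change in Socs1, an inhibitor of JAK-STAT signaling (-1.33, SE 1.15). With replicate number as a block, the calls over all 6 lists went from 1 to 5, where the block called 4.39% of all genes tested. These were Socs3 (-1.54, SE 0.36, unadjusted p = 0.00192), another inhibitor of that pathway, Socs1 (-1.54, SE 0.46), Cmtm3 (-0.89, SE 0.28) and Cmtm6 (-0.90, SE 0.35), all lower with AMD3100, and Cmtm8 (0.64, SE 0.25), higher with AMD3100. The lowest adjusted p among them was 0.339, for Socs3 (edgeR's quasi-likelihood test).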

How the data were processed

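From 3 control tubes and 3 tubes with AMD3100, the authors made 3′ mRNA libraries with 50 bp single reads and deposited raw counts, as whole reads for each gene symbol and without scaling. Bowtie2, edgeR and the build mm10 are named in the submitters' processing notes, and the counting tool, the annotation and the strand setting are not given in the sources used here. Each library listed 23282 lines, of which 22 repeated an earlier line exactly and were left out. Conditions and replicate numbers came from the labels.

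All genes were fitted together with edgeR 4.0.16 in R 4.3.3 (TMM, filterByExpr on condition, glmQLFit, glmQLFTest, Benjamini-Hochberg adjustment over 13610 genes), with condition as the only term, and the fits were tested on simulated data. Values of a group are its mean ± SD, and a fold change is AMD3100-treated over control. A member was called at a fold change over 1.5 and an unadjusted p under 0.05, the thresholds of the study. Members and gene lists were chosen with earlier results of these data known. Every member is named with its detection, except for a receptor not reported here, those tested or above 10 counts in a library with all 6 values. From each pathway list the genes called and the largest change are named, with the 5 genes most correlated with Ccl11. Ackr3, Cxcl12, Cxcr4 and the genes called with the replicate block were named beside this rule, after their values were seen. Positions and promoters are those of RefSeq GRCm38.p6. The promoter table held 39 of the 55 members. Reads of 50 bases, 25 bases apart over the last 300 bases of a gene, were simulated from GENCODE vM1 on NCBIM37 (54 members matched) and aligned with minimap2 2.31-r1302. That build is not the one named by the submitters and served only to find shared reads.

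Replicate numbers come from the labels of both groups. Deviations of log2 CPM from the group means correlated at 0.185, 0.171 and 0.584 between same-numbered libraries 1, 2 and 3. All were over 0.1, and numbers were taken to pair the libraries in comparisons by number and in the replicate block. The main fit did not use them. Control replicate 2 with AMD3100-treated replicate 1 gave 0.198, and control replicate 1 with AMD3100-treated replicate 2 gave 0.146. These values set apart replicate 3 alone and do not decide whether numbers 1 and 2 mark pairs. Alternatives were upper quartile normalization, DESeq2 1.42.0, limma-voom (limma 3.58.1) after quantile normalization, a version of the procedure of the study (quantile normalization of log2(count + 1), unlogged fold changes, unadjusted equal-variance tests), no filter, a filter of 10 counts in all libraries, robust estimation, the replicate block, a threshold of 2-fold, each replicate left out, replicates 1 and 2 only, and the ribosomal RNA precursor Rn45s left out. DESeq2 with the replicate block was added after seeing the data. In the 14 marker lists, 0 of 56 genes tested were called, and with the replicate block 2 were, Krt15 and Myog, where the block called 4.39% of all genes.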

Additional observations from a re-analysis of the deposited data

How the results depend on the processing

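Ccl11 stayed down-regulated by both thresholds under every alternative that could fit it. It could not be fitted with at least 10 counts in every library, where 0 members were called. A version of the procedure of the study called 3 members, with 2 lower (Ccl11 and Ccr2) and 1 higher (Ccl3), where 2.34% of all genes were called. Leaving out each replicate in turn gave 1 to 2 members called, 1 to 2 of them lower, the second being Ccl5 without AMD3100-treated replicate 2. Over all genes fitted, the calls ran from 163 of 14197 (without AMD3100-treated replicate 1) to 547 of 14256 (without control replicate 3). At an adjusted p under 0.05, DESeq2 and DESeq2 with the replicate block each called 1 member, Ccl11, and 0.0274% and 0.583% of all genes, respectively. With the replicate block the log2 fold change of Ccl11 was -5.49 (unadjusted p = 0.00259, adjusted p = 0.397 by edgeR), and the block changed no other call of a member. Of the 55 members, 14 were detected when a count in all 6 libraries was required.

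Among the genes of the pathway lists, the replicate block called 5 (4 lower and 1 higher) and DESeq2 with the replicate block 4 (3 lower and 1 higher). Over all genes these fits called 4.39% and 4.62%, respectively. limma-voom called 0 lower and 1 higher, where it called 312 of all 13610 genes fitted. Replicates 1 and 2 alone called 2, of them 1 higher, where 613 of all 13948 genes fitted were called. The genes called in some alternative were Cmtm3, Cmtm6, Socs1 and Socs3, all lower, and Cmtm8, Ackr3 and Crlf2, all higher. Leaving out each replicate gave 0 to 3 calls, with 0 to 2 lower and 0 to 2 higher, where these fits called from 163 of 14197 to 547 of 14256 genes. In the marker lists, the replicate block called Krt15 higher (0.62, SE 0.23) and Myog lower (-1.16, SE 0.31).

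Members were fitted in 15 to 17 of the 17 alternatives that gave a log2 fold change. Its sign was the same in all alternatives that fitted the member for 10 of the 21 members tested. It changed in some for 11, none of them called in the main test. Over the fits that left out 1 library, the log2 fold change ran from -0.20 to 1.04 for Ccl21a, -1.11 to 1.69 for Ccl27a, -0.79 to 0.80 for Ccl27b, -2.28 to 0.32 for Ccl4, -6.87 to 0.94 for Ccl5, -0.65 to 0.44 for Ccl9, -0.37 to 0.56 for Cx3cr1, -1.0 to 0.029 for Cxcl13, -0.0019 to 0.40 for Cxcl16, -1.66 to 0.68 for Cxcl17 and -0.53 to 0.096 for Cxcr5. limma-voom gave -0.20 for Ccl21a and -1.87 for Ccl5. Ccl5 was at -2.72 with the replicate block and at -3.39 with DESeq2 and the block. With replicates 1 and 2 only, Ccl27b was at -0.041, Ccl9 at 0.46 and Cxcl17 at 0.30. The causes were not tested.

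Low counts limit most members. The median SE of the members (0.984) exceeded that of all genes (0.503), and simulated reads of Ccl21a, Ccl21b, Ccl21c, Ccl27a, Ccl19, Cxcr2 and Ccl9 were shared with other places.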

Other observations

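Cell types that carry chemokine receptors or make chemokines were also read from marker lists. The 5 pan-leukocyte markers all passed the filter, with Laptm5, a lysosomal membrane protein of blood cells, the most abundant, and summed to 40.2, 27.2 and 71.2 CPM in control replicates 1, 2 and 3 and to 29.1, 34.3 and 77.6 CPM in AMD3100-treated replicates 1, 2 and 3. The sums were highest in both replicate 3 libraries through Laptm5 (50.2 and 56.5 CPM there), whereas Ptprc, which encodes CD45, was lowest in them (3.69 and 3.93 CPM). The 6 blood endothelial markers, led by Kdr, a VEGF receptor, summed to 36.9, 23.7 and 29.6 CPM in control and to 19.6, 46.9 and 16.1 CPM in AMD3100-treated eSMGs, without an order between the groups. Kdr alone had a positive log2 fold change (0.77, SE 0.51), and the other 4 markers tested, Pecam1, Cdh5, Tie1 and Emcn, had negative ones of -0.27 to -1.56, none of them called. The markers of the parasympathetic ganglion, led by the neuronal tubulin Tubb3, summed to 611, 488 and 690 CPM in control and to 527, 503 and 901 CPM in AMD3100-treated eSMGs. Mast cell markers, of which Cpa3 alone passed the filter and Fcer1a was at 0, summed to at most 3.51 CPM in any library. In the epithelial list, the sums were 1988, 1978 and 1399 CPM in control and 2428, 2099 and 3350 CPM in AMD3100-treated eSMGs, so that the groups did not overlap. Without Krt15 they were 947, 966 and 511 CPM against 1061, 1083 and 878 CPM, which overlapped. Cdh1, the E-cadherin gene, was the marker of the list whose AMD3100-treated libraries all stood above control, as did those of 3.28% of all genes tested. It was at 337, 302 and 211 CPM in control against 344, 394 and 507 CPM with AMD3100 (log2 fold change 0.55, SE 0.31). Without the replicate block none of the 7 genes was called, and with the replicate block Krt15 was (log2 fold change 0.62, SE 0.23, unadjusted p = 0.0240 and adjusted p = 0.703 by edgeR). The part of these cell types in the levels of the chemokines was not tested.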
